A study of Neurospora crassa OR74A with 13 samples.

Results

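The 50 genes described here are cellulose-induced genes of the filamentous fungus Neurospora crassa that cellobiose under-induced in a strain called TBGK, out of 9733 genes measured. Transcript levels were FPKM (fragment numbers scaled to transcript length and library size), summed per gene, with 1 added before ratios were taken. A gene was taken when 2 conditions held. Its lowest wild-type (WT) Avicel library had at least 2 times the level of the highest of the 6 WT libraries on no carbon and on sucrose, and TBGK on cellobiose had at most 50% of the geometric mean of the 3 WT Avicel libraries. On the WT libraries alone 153 genes qualified. Of these, gh1-1 and gh3-3 are deleted in TBGK and were left out, and 101 lay above the 50% limit and are called here the other cellulose-induced genes. The members were thus chosen by these FPKM values in 10 of the 13 libraries; TBGK on Avicel, TBGK on sucrose and WT on cellobiose did not enter it.

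Mycelia were grown for 16 h on sucrose, washed, and moved for 4 h to Avicel (crystalline cellulose), to cellobiose (the disaccharide that cellulases release from cellulose), to sucrose or to medium without carbon, and polyadenylated RNA was sequenced. TBGK carries deletions of 3 beta-glucosidase genes, gh3-4 (NCU04952), gh1-1 (NCU00130) and gh3-3 (NCU08755); the WT carries none of them. There was 1 library for each TBGK group (Avicel, cellobiose, sucrose) and for WT given cellobiose, whereas WT given Avicel, no carbon or sucrose was sampled in 3 biological replicates. The labels mark those 9 replicated libraries as taken over from an earlier submission. Where a single library is set against a triplicate, the effect of the separate submissions cannot be told apart from that of strain or carbon source.

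Cellulose is too large to enter the cell, and fungi sense it through the soluble sugars that a low level of secreted enzymes sets free. In Neurospora cellobiose and longer cellodextrins act as such signals, but beta-glucosidases split them to glucose, which represses the response. Plant cell walls, and to a small extent purified celluloses, also hold xylan, which xylanases cut and whose xylose is taken up and reduced by the enzymes of pentose catabolism. The regulators clr-1 and clr-2 act on cellulase genes and xlr-1 on genes for xylan and xylose use.

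Depth of the replicated libraries was 472 to 5640.4 aligned megabases, an 11.96-fold range, with WT Avicel replicate 1 and WT sucrose replicate 1 the shallowest, and for the 4 single libraries no depth is known. Each library listed 718 to 2341 of the 9733 genes at 0. The 3 deleted genes had 0 to 9.21 FPKM in the TBGK libraries, against 189 to 50743 FPKM in the WT Avicel libraries. In the 9 replicated libraries FPKM times effective length summed to 5.23 to 9.28 times what scaling to the reads on these transcripts would give. The highest factors were those of WT sucrose replicates 2 and 3 (9.02 and 9.28), followed by WT Avicel replicate 1 (7.81) and WT sucrose replicate 1 (7.76). WT Avicel replicates 2 and 3 had 6.02 and 6.21. Small differences between carbon sources, and between replicates of 1 carbon source, thus depend on the scaling.

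The members kept 1.74% to 49.9% of their WT Avicel level in TBGK on cellobiose, as ratios of FPKM + 1. These values chose the genes and are given as a description, with no test; over all genes 9.17% were at least 2-fold lower in TBGK on cellobiose than in WT on Avicel. By the same choice all 50 were higher in WT on Avicel than on no carbon (median 4.02 log2; 4.78% of all genes were at least 2-fold higher and 8.72% lower) and than on sucrose (median 6.28 log2; 29.3% higher and 17% lower). TBGK on cellobiose lay at or under 50% of every single WT Avicel library in 36 of the 50 genes, against 3.73% of all genes. Just inside the limit were NCU08038 at 49.9%, NCU07270 at 49.0%, NCU00763 at 48.8%, the chaperone gene grp78 at 46.7% and the polysaccharide monooxygenase gene gh61-1 at 45.9%. Just outside it were the xylanase gene gh10-1 (NCU05924) at 51.2%, NCU08687 at 51.7%, NCU09172 at 53.3%, NCU11342 at 53.5% and NCU06032 at 53.8%. The values ran on across the limit without a gap, so the gene set has no natural edge there. At the other condition, NCU07546, NCU00292 and NCU07270 were just inside with 2.02, 2.09 and 2.11 times the highest no carbon or sucrose library, and the xylulokinase gene xyk-1 (NCU11353), NCU05350 and gst-4 (NCU10521) just outside with 1.99, 1.97 and 1.91 times.

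**Figure D1:**
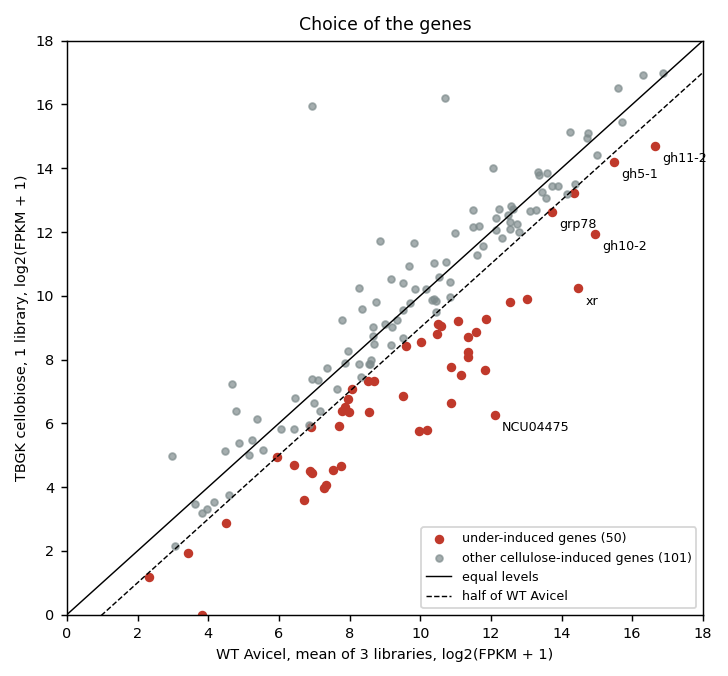
Level of each cellulose-induced gene in TBGK on cellobiose (1 library, vertical axis) against the mean of the 3 WT Avicel libraries (horizontal axis), both as log2(FPKM + 1). The 50 genes lie at or under the dashed line at 50% of WT Avicel, down to NCU04475 at 1.74%, and the other 101 cellulose-induced genes lie above it; both groups follow from the choice.

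Among single replicates left out, membership depended most on WT Avicel replicate 1. Without it 79 genes met the conditions, 45 of them among the 50. Without replicate 2 there were 62 genes (49 among the 50), and without replicate 3 there were 51 (48 among the 50). With replicate 1 as the only WT Avicel library 113 genes met the conditions, 43 of them among the 50. Fewer Avicel libraries make the condition on the lowest of them easier to meet, and replicates 2 and 3 were not tried alone. Of the 50, 49 were in the reference gene table, 12 had a symbol there, and 16 stood on a list of genes of a pathway. Of the 153 genes that met the WT conditions 50 were members; shares by list were not tested against this and rest on few genes. Both genes of pentose catabolism that met the WT conditions, out of 4 on that list, were among the 50, as was the single sugar transport gene of 11 that met them. The sugar transport list leaves out the cellodextrin transporter genes cdt-1 and cdt-2, which stand on the list of cellobiose use. Both met the WT conditions and neither was a member. Among 25 hemicellulase genes 18 met the WT conditions, 7 of which were members. Members were 2 of 7 induced cellulases (8 on the list), 1 of 7 induced lytic polysaccharide monooxygenases (14 on the list), and none of the 5 induced genes of cellobiose use left in TBGK. Pectin degradation gave 1 of 2, regulators 1 of 3, endoplasmic reticulum (ER) folding 1 of 4 and starch degradation none of 1; no gene of the conidiation list (4 genes) or the light response list (5 genes) was cellulose-induced. Outside the 50, TBGK on cellobiose had 110% of WT Avicel for the cellobiohydrolase gene cbh-1 (NCU07340), 186% for the cellodextrin transporter gene cdt-1 (NCU00801), 83.6% for its partner cdt-2 (NCU08114), 72.0% for clr-2 (NCU08042) and 104% for xlr-1 (NCU06971).

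The pentose genes and the transporter list gene were among the members with little of their WT Avicel level in TBGK on cellobiose. For xr (NCU08384), which encodes xylose reductase, the enzyme that turns xylose into xylitol, TBGK had 10154 FPKM on Avicel, 1199.8 FPKM on cellobiose and 52.6 FPKM on sucrose. The WT had 8539.9, 36991 and 37166 FPKM on Avicel, 590.4 FPKM on cellobiose, 70.6, 99.6 and 106 FPKM on no carbon, and 63.0, 83.2 and 64.4 FPKM on sucrose. Both cellobiose libraries thus lay above all no carbon and sucrose libraries and below all 4 Avicel libraries, TBGK at 5.28% of WT Avicel. For NCU00891, on the pentose catabolism list, TBGK had 3586 FPKM on Avicel, 902 FPKM on cellobiose and 249 FPKM on sucrose. The WT had 2086, 9641 and 10645 FPKM on Avicel, 299 FPKM on cellobiose, 319, 230.4 and 355 FPKM on no carbon, and 244, 139 and 99.8 FPKM on sucrose. TBGK on cellobiose was at 15.1% of WT Avicel and above every no carbon and sucrose library, whereas WT on cellobiose lay within the no carbon range. Of the other 2 genes on that list, xyk-1 had 21.1% of WT Avicel in TBGK on cellobiose and narrowly missed the WT conditions. The last, NCU00643, was not cellulose-induced and went the other way. It had 297 FPKM in TBGK on cellobiose (175%), against 131, 191 and 195 FPKM in WT on Avicel. NCU06138, on the sugar transport list, had 992 FPKM on Avicel, 204 FPKM on cellobiose and 7.19 FPKM on sucrose in TBGK. The WT had 1986, 4629 and 5174 FPKM on Avicel, 4.94 FPKM on cellobiose, 166, 56.1 and 164 FPKM on no carbon, and 0, 14.2 and 8.42 FPKM on sucrose. Here TBGK on cellobiose was at 5.67% of WT Avicel and above the no carbon libraries, while WT on cellobiose fell within the sucrose range.

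Xylanase and other hemicellulase genes followed. For gh11-2 (NCU07225), a family 11 xylanase gene and the most abundant member in WT Avicel, TBGK had 78012 FPKM on Avicel, 26528 FPKM on cellobiose and 8.11 FPKM on sucrose. The WT had 126366, 84185 and 103438 FPKM on Avicel, 27.2 FPKM on cellobiose, 108, 165 and 215 FPKM on no carbon, and 0, 66.8 and 5.07 FPKM on sucrose. At 25.7% of WT Avicel, TBGK on cellobiose was still 123 times the highest no carbon or sucrose library. For the family 10 xylanase gene gh10-2 (NCU08189) TBGK had 9969.8 FPKM on Avicel, 3944 FPKM on cellobiose and 2.55 FPKM on sucrose. The WT had 12303, 48359 and 53692 FPKM on Avicel, 69.8 FPKM on cellobiose, 208, 157 and 501 FPKM on no carbon, and 0, 43.0 and 7.97 FPKM on sucrose. TBGK on cellobiose reached 12.4% of WT Avicel, and TBGK on Avicel itself lay under all 3 WT Avicel libraries. The xylanase gene gh10-1, outside the 50, had 9388 FPKM in TBGK on cellobiose, against 30744, 12382 and 16236 FPKM in WT on Avicel. Also cellulose-induced but outside the 50 were the xylanase genes gh11-1 (NCU02855) and gh10-3 (NCU04997). They had 141% and 78.0% of WT Avicel in TBGK on cellobiose, so a low share was not common to all induced xylanase genes. NCU01900, on the hemicellulase list, had 946 FPKM in TBGK on cellobiose (11.3% of WT Avicel), against 3574, 12226 and 13407 FPKM in WT on Avicel. NCU09652, also on that list, had 268 FPKM in TBGK on cellobiose (10.4%), against 1128, 3835 and 4044 FPKM in WT on Avicel. In NCU09652 the TBGK value lay inside the WT no carbon range of 229 to 441 FPKM, whereas in NCU01900 it was 4.58 times the highest no carbon or sucrose library. The hydrolase genes gh3-7 (NCU09923), gh3-8 (NCU00709) and gh2-1 (NCU00890) were less abundant, with 24.4, 15.6 and 446 FPKM in TBGK on cellobiose, at 11.8%, 10.4% and 31.2% of WT Avicel. Their WT Avicel levels were 163 to 280.3, 52.8 to 291 and 1271 to 1594 FPKM.

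Members that act on cellulose had 27.6% to 45.9% of WT Avicel in TBGK on cellobiose. This was more than in xr or gh10-2, but the hemicellulase list member gh2-1, at 31.2%, lay in the same range. These values chose the genes, and no difference between lists is read from them. For gh5-1 (NCU00762), an endoglucanase gene, TBGK had 65402 FPKM on Avicel, 18848 FPKM on cellobiose and 9.04 FPKM on sucrose. The WT had 68101, 32852 and 43671 FPKM on Avicel, 25.3 FPKM on cellobiose, 11.0, 12.8 and 16.3 FPKM on no carbon, and 0, 25.6 and 3.77 FPKM on sucrose. TBGK on cellobiose was at 40.9% of WT Avicel and 708 times the highest no carbon or sucrose library. For gh61-1 (NCU02240), a lytic polysaccharide monooxygenase gene, TBGK had 22893 FPKM on Avicel, 9652 FPKM on cellobiose and 7.89 FPKM on sucrose. The WT had 28624, 15906 and 20390.1 FPKM on Avicel, 20.0 FPKM on cellobiose, 47.7, 41.7 and 42.9 FPKM on no carbon, and 0, 13.3 and 5.37 FPKM on sucrose. The 4 Avicel libraries overlapped between strains in both genes, and TBGK on cellobiose lay below all of them. The family 7 cellulase gene gh7-2 (NCU04854) had 587 FPKM in TBGK on cellobiose (27.6%), against 2757, 1543 and 2277 FPKM in WT on Avicel. NCU08176, on the pectin degradation list, had 526 FPKM in TBGK on cellobiose (34.1%), against 2411, 1067 and 1434 FPKM in WT on Avicel.

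The regulator clr-1 (NCU07705), a transcription factor needed for growth on cellulose, varied over a narrower range. TBGK had 580.4 FPKM on Avicel, 346 FPKM on cellobiose and 49.0 FPKM on sucrose, and the WT had 519, 936 and 950.3 FPKM on Avicel, 156 FPKM on cellobiose, 172, 178 and 221 FPKM on no carbon, and 53.0, 43.3 and 40.4 FPKM on sucrose. TBGK on cellobiose stood at 44.8% of WT Avicel, above all 3 no carbon libraries and below WT Avicel replicate 1. For grp78 (NCU03982), the main chaperone of the ER, which folds secreted proteins, TBGK had 14820.2 FPKM on Avicel, 6345 FPKM on cellobiose and 3249 FPKM on sucrose. The WT had 15979, 11826 and 13257 FPKM on Avicel, 2892 FPKM on cellobiose, 1673, 2173 and 1713 FPKM on no carbon, and 4451, 2710.0 and 2747 FPKM on sucrose. It was the member with the most transcript on sucrose, and the other 3 induced ER folding genes had 66.1% to 75.5% of WT Avicel in TBGK on cellobiose. For gst-3 (NCU01320), which encodes a glutathione S-transferase, an enzyme class that conjugates glutathione to reactive compounds, TBGK had 1597 FPKM on Avicel, 372 FPKM on cellobiose and 354 FPKM on sucrose. The WT had 1200.2, 815 and 1173 FPKM on Avicel, 399 FPKM on cellobiose, 142, 113 and 173 FPKM on no carbon, and 382, 326 and 336 FPKM on sucrose. In this gene cellobiose and sucrose gave nearly the same level in both strains. Its annotated span overlaps that of NCU01319, and no strand was stated for the counting, so reads of the 2 genes cannot be told apart in the overlap.

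**Figure D2:**
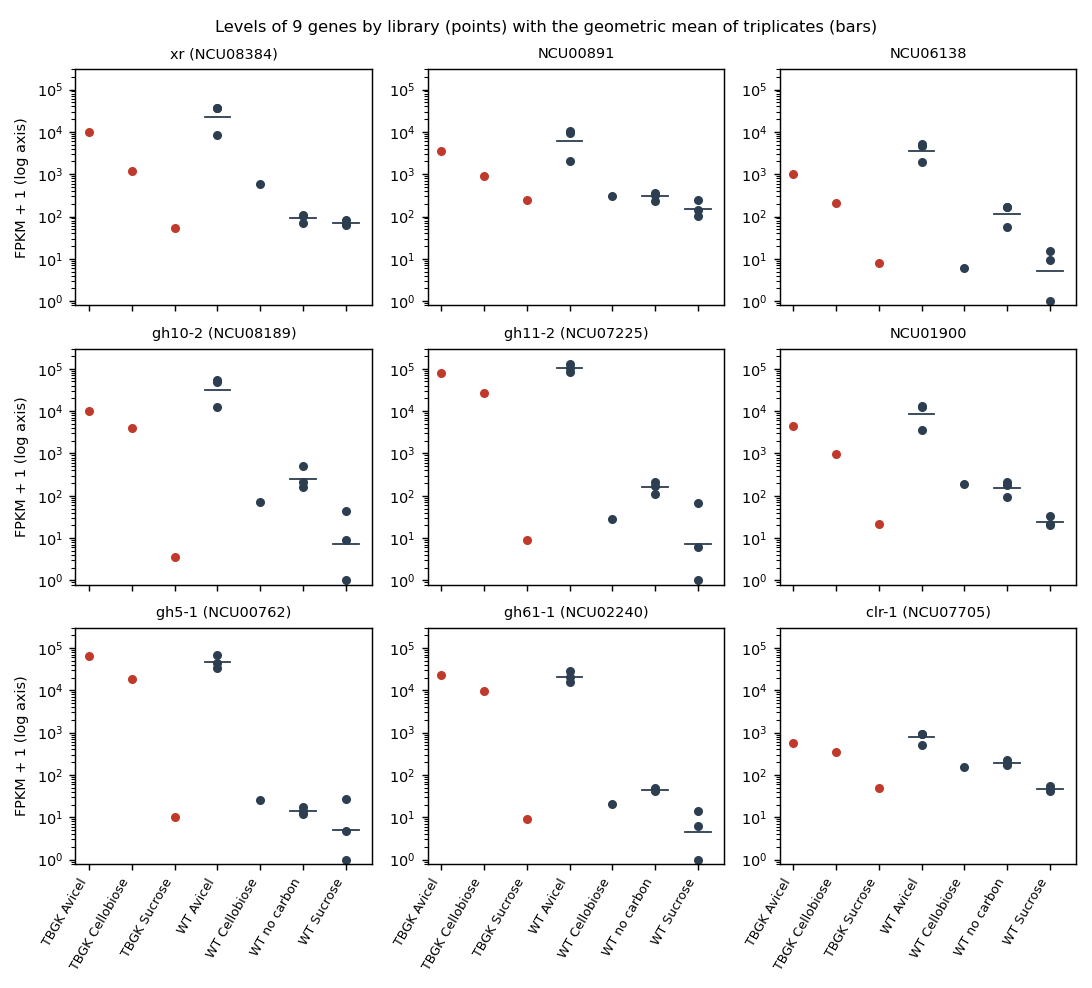
Levels of 9 of the genes as FPKM + 1 on a log axis, 1 point per library, with bars at the geometric mean of the 3 replicates; TBGK is red and WT dark blue. In xr, NCU00891, NCU06138, gh10-2, NCU01900 and clr-1 the lowest of the 3 WT Avicel points is replicate 1, and in every panel TBGK on cellobiose lies between TBGK on Avicel and TBGK on sucrose.

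Most of the members with the lowest share of WT Avicel carry neither a symbol nor a list entry. The same holds for the members as a whole, of which 17 carry a symbol or a list entry. No trait of the genes with the lowest share is thus read from this. NCU04475, with the lowest share, had 429 FPKM on Avicel, 76.1 FPKM on cellobiose and 51.7 FPKM on sucrose in TBGK. The WT had 2597, 5468 and 6115 FPKM on Avicel, 38.1 FPKM on cellobiose, 229, 125 and 171 FPKM on no carbon, and 23.2, 33.1 and 20.2 FPKM on sucrose. TBGK on cellobiose was thus below every WT no carbon library, and TBGK on Avicel was at 9.70% of WT Avicel. NCU00292 had 566 FPKM on Avicel, 98.1 FPKM on cellobiose and 8.27 FPKM on sucrose in TBGK, against 449, 3727 and 3986 FPKM in WT on Avicel. In NCU00292 WT Avicel replicate 1 was at 0.117 of the mean of the other two, and the TBGK cellobiose value lay inside the no carbon range of 49.2 to 214 FPKM. NCU09705, among the 10 most abundant members on Avicel, had 615 FPKM in TBGK on cellobiose, against 1573, 5198 and 6329 FPKM in WT on Avicel. NCU00710 had 52.8 FPKM in TBGK on cellobiose, against 524, 1283 and 1498 FPKM in WT on Avicel, with 10.7 to 22.5 FPKM in all no carbon and sucrose libraries of the WT. NCU05068 was low on cellobiose but not on Avicel: TBGK had 4841 FPKM on Avicel, 184 FPKM on cellobiose and 31.8 FPKM on sucrose, against 2123, 2165 and 2537 FPKM in WT on Avicel. NCU10697, the gene next to it, had 206 FPKM on Avicel, 14.5 FPKM on cellobiose and 14.7 FPKM on sucrose in TBGK. In this gene cellobiose and sucrose gave the same level, and WT on cellobiose had 14.9 FPKM.

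**Figure D3:**
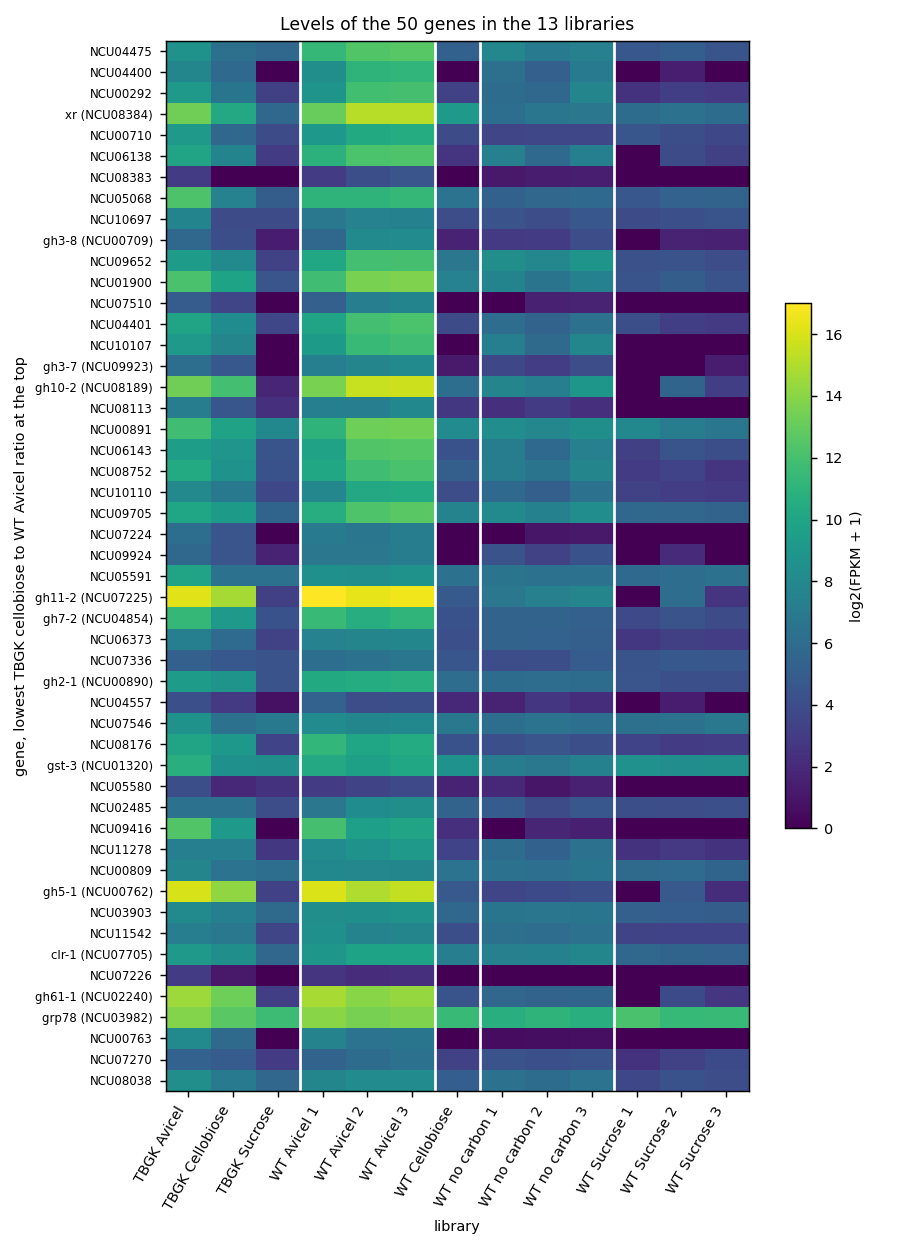
Level of each of the 50 genes (lines, lowest share of WT Avicel in TBGK on cellobiose at the top) in each of the 13 libraries (columns), coloured by log2(FPKM + 1). White lines part the groups; the WT sucrose columns are dark for most genes, except grp78 at 2710.0 to 4451 FPKM and gst-3 at 326 to 382 FPKM, and WT Avicel replicate 1 is darker than replicates 2 and 3 in the upper part.

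The WT Avicel replicates did not agree in these genes. Replicate 1 was at or under 50% of both other replicates in 20 of the 50 genes, against 5 of the other 101 cellulose-induced genes and 11.1% of all genes. It was at least 2 times both others in 2 of the 50 (NCU04557 and NCU09416), against 28 of the 101 and 8.59% of all genes. The median ratio of replicate 1 to the mean of replicates 2 and 3 was 0.659 in the 50, 1.59 in the 101 and 0.920 over all genes, with ratios from 0.117 to 4.66 among the 50. All 3 WT Avicel libraries entered the choice, so these counts and ratios are a description. No difference between the 50 and the 101 is read from them. Replicate 1 also had the lowest depth of the 9 libraries; whether depth had a part in the spread was not tested. In the 20 genes with a low replicate 1 the median share of WT Avicel in TBGK on cellobiose was 11.3%, and in the other 30 it was 34.8%. This split was made after the values were seen. The replicates and the share are both values that chose the genes, so nothing is read from this difference. The mean of WT Avicel that chose the genes rests on replicates that differ by up to several-fold.

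WT on no carbon against WT on sucrose asked which of these genes respond to the loss of sugar alone, with no cellulose present. The choice never set no carbon against sucrose, but it took the highest of these 6 libraries as a ceiling, so the libraries are not independent of it. Each gene was tested in a fit over all genes (limma, Benjamini-Hochberg), and the counts over the members are a description beside those over all genes. Of the 50 genes 33 rose on no carbon, 2 fell and 15 did not pass, and 35 had an unadjusted p under 0.05. Over all 8759 genes tested 40.2% rose and 24.1% fell, 64.3% together. All 50 passed the filter on low values, 5 of them only through the Avicel libraries (NCU00763, NCU07224, NCU07226, NCU07510 and NCU09416), and none of these 5 was called. The median difference was 1.74 in log2(FPKM + 1) over the 50, 1.79 over the other 101 cellulose-induced genes, of which 63 rose and 3 fell, and 0.39 over all genes tested. No carbon lay above sucrose with no overlap of the replicates in 34 of the 50 genes, against 41.1% of all genes. The count depended on the scaling. With quantile normalization, which moved the median of all genes to 0.05, 20 of the 50 rose and 5 fell. Over all genes tested 30.0% rose and 28.1% fell with that scaling. Rises made up 51.6% of all calls against 62.5% without it.

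The rises included the xylanase members, the sugar transport member and the other hemicellulase members. NCU10107 had 163, 58.0 and 226 FPKM on no carbon and was listed at 0 in all 3 sucrose libraries (adjusted p = 4.29e-05, limma). In NCU04400 no carbon gave 78.0, 35.8 and 129.5 FPKM against 0, 1.66 and 0 on sucrose, a difference of 5.71 log2 (SE 0.80, adjusted p = 0.000313, limma). Rises of gh10-2 by 5.12 log2 (SE 1.23, adjusted p = 0.00581), of NCU06138 by 4.47 (SE 0.95, adjusted p = 0.00312) and of gh11-2 by 4.40 (SE 1.22, adjusted p = 0.012) followed in size among named genes. In these 3 genes all no carbon replicates lay above all sucrose replicates, and 1 sucrose library was listed at 0. Smaller and tighter rises were those of clr-1 by 2.04 (SE 0.25, adjusted p = 0.000149) and gh2-1 by 1.78 (SE 0.16, adjusted p = 2.39e-05). All 7 hemicellulase members rose, beside 19 rises and 1 fall among all 25 hemicellulase genes measured. Of these 7, gh3-7 lost its call with quantile normalization (adjusted p = 0.0579), and gh3-8 lost it with quantile normalization (adjusted p = 0.758), with a pseudocount of 10 (0.233), without no carbon replicate 3 (0.083) and without sucrose replicate 1 (0.0755). NCU04475 rose by 2.72 (SE 0.36, adjusted p = 0.000223), gh61-1 by 3.32 (SE 0.80, adjusted p = 0.00594) and gh7-2 by 1.31 (SE 0.25, adjusted p = 0.00185, but 0.483 with quantile normalization).

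The pentose genes did not pass. The difference was 0.38 for xr (SE 0.51, adjusted p = 0.540) and 0.98 for NCU00891 (SE 0.60, adjusted p = 0.182), and the replicates of no carbon and sucrose overlapped in both; NCU00891 passed without WT Avicel replicate 1 in the fit (adjusted p = 0.0272). The remaining pentose catabolism genes, xyk-1 and NCU00643, rose. The endoglucanase gene gh5-1 did not pass either (SE 0.97, adjusted p = 0.202), with 25.6 FPKM in WT sucrose replicate 2 above all 3 no carbon libraries; without that replicate the difference was 2.70 (adjusted p = 0.00683). NCU00710 had -0.52 (adjusted p = 0.277), NCU07336 -0.23 (adjusted p = 0.509) and NCU07546 -0.25 (adjusted p = 0.297). With quantile normalization all 3 were called as lower on no carbon, NCU00710 at -2.05 (adjusted p = 0.00302), NCU07336 at -1.49 (adjusted p = 0.0034) and NCU07546 at -0.52 (adjusted p = 0.0433). The 2 genes that fell were gst-3, by 1.30 log2 (SE 0.21, adjusted p = 0.000654), with all 3 no carbon libraries below all 3 sucrose libraries, and grp78, by 0.80 (SE 0.26, adjusted p = 0.0224). The grp78 call was lost without no carbon replicate 1 (adjusted p = 0.0706), without no carbon replicate 3 (adjusted p = 0.0743) and with quantile normalization (adjusted p = 0.559).

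**Figure D4:**
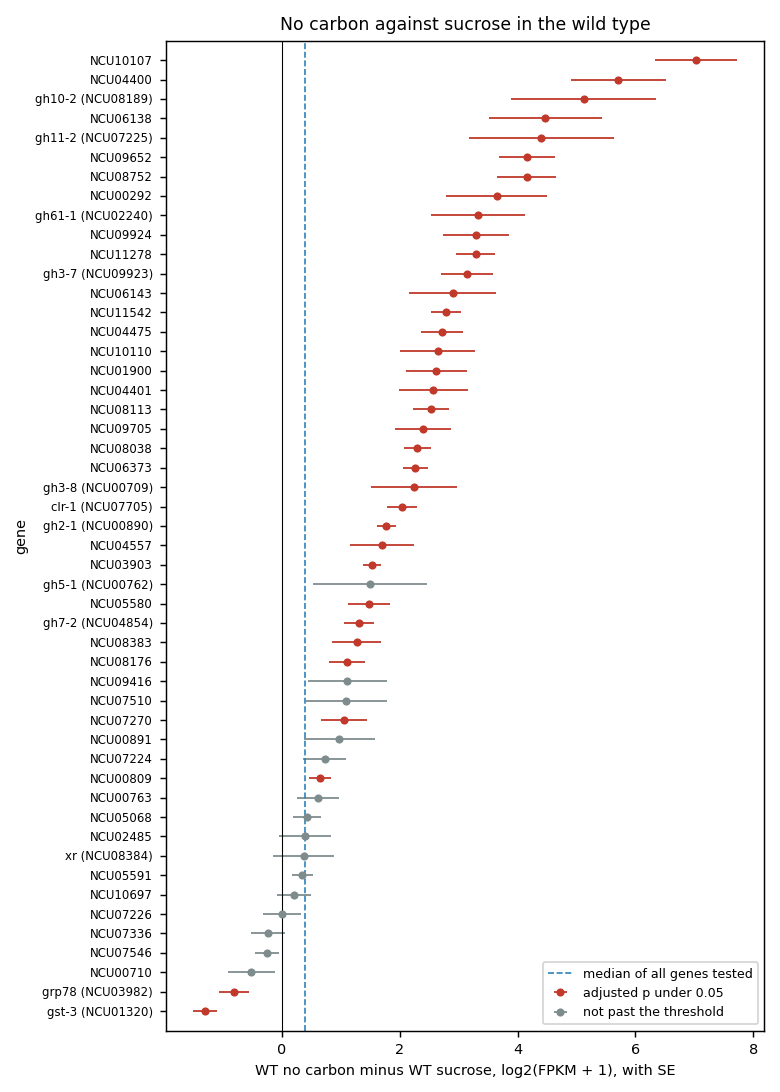
Difference between WT on no carbon and WT on sucrose for the 50 genes, in log2(FPKM + 1) with the standard error of limma (3 replicates a group); red points had an adjusted p under 0.05 and the dashed line is the median of all genes tested, 0.39. Of the 50 genes 33 lie to the right in red and 2, grp78 and gst-3, to the left in red; NCU10107 at the top was listed at 0 on sucrose, so its distance depends on the added 1.

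TBGK on Avicel against TBGK on sucrose showed whether the same genes respond to cellulose in the mutant, in libraries that did not enter the choice. On Avicel 49 of the 50 genes were higher by at least 2-fold and none was lower by that much, against 25.6% of all genes higher and 17.1% lower. The exception was NCU07336, with 36.6 FPKM on Avicel and 19.7 on sucrose. The median difference was 4.78 log2 over the 50, 6.11 over the other 101 cellulose-induced genes, all 101 of them higher, and 0 over all genes. With 1 library each there is no test of this difference. The share of 2-fold differences that were higher was 59.9% over all genes, and 46.0% with quantile normalization. In the TBGK Avicel library all 50 genes lay above all 6 WT libraries on no carbon and sucrose, as 17.1% of all genes did.

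The differences between Avicel and sucrose in TBGK ranged widely among the members. They were 13.06 log2 for gh11-2, 12.67 for gh5-1, 11.45 for gh10-2 and 11.33 for gh61-1. NCU09416 had 5227 FPKM on Avicel and was listed at 0 on sucrose, 1 of 9 members with a value of 0 in the TBGK sucrose library. At the low end, apart from NCU07336, were NCU00809 with 210.2 FPKM on Avicel and 68.2 on sucrose (1.61 log2), NCU05580 with 16.3 and 4.55 (1.64), NCU07546 with 417 and 114 (1.86) and gst-3 (2.17). All 5 of these had TBGK cellobiose levels at or below 1.05 times the highest WT no carbon or sucrose library.

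Set against WT on Avicel, TBGK on Avicel gave lower levels in many of the members. At least 2-fold lower were 20 of the 50 genes, against 9.33% of all genes, and at least 2-fold higher were 4, against 13.9%. The median difference was -0.75 log2 over the 50, 0.28 over the other 101 cellulose-induced genes (7 lower and 23 higher) and 0 over all genes. TBGK on Avicel lay below every WT Avicel library in 27 genes (33.8% of all genes), within their range in 13 (37.5%) and above all of them in 10 (28.7%). The choice set TBGK on cellobiose against the same WT Avicel mean, so these counts share their reference with it and are a description. With WT Avicel replicate 1 as the only WT library, 7 of the 50 were lower by at least 2-fold, beside 4.96% of all genes. The medians were then -0.11 over the 50 and -0.13 over the 101. The 20 genes with a low replicate 1, a split made after the values were seen, held 15 of the 20 lower genes.

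Among single genes NCU04475 had the lowest difference, -3.37 log2, followed by NCU04400 (-2.36), NCU06143 (-2.09), NCU09652 (-2.03) and NCU06138 (-1.87). In NCU04475, NCU04400, NCU06143, NCU09652 and NCU06138 the TBGK library was below all 3 WT libraries. NCU06143 had 712 FPKM in TBGK on Avicel, against 882, 5413 and 5843 FPKM in WT on Avicel. At the other end were NCU09416 with 5227 FPKM in TBGK, against 4069, 777 and 978 FPKM in WT, NCU05591 with 957 FPKM in TBGK, against 375, 339 and 419 FPKM in WT, and NCU00763 with 262 FPKM in TBGK, against 196, 87.5 and 98.6 FPKM in WT. NCU05068 and NCU07546 also lay above all 3 WT Avicel libraries. These 5 genes were all at 8.14% to 48.8% of WT Avicel in TBGK on cellobiose. A low level on cellobiose thus went with a low level on Avicel in some members and with a high one in others. Among the 5, NCU00763 stood 275 bases from the far more abundant gh5-1. Whether reads of gh5-1 had a part in its level was not tested.

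The single WT library on cellobiose, also outside the choice, held little of these transcripts. It was at least 2-fold higher than WT on sucrose in 20 of the 50 genes, against 19.3% of all genes, and 2-fold lower in none, against 7.14%. The other cellulose-induced genes gave 71 of 101. The median difference was 0.67 log2 over the 50, 1.65 over the 101 and 0 over all genes, and with quantile normalization it was 0.15, 1.22 and -0.20. That scaling gave 14 of the 50 higher by at least 2-fold and 2 lower, beside 13.4% and 8.03% of all genes. In 22 of the 50 genes WT on cellobiose lay within the range of the 3 sucrose libraries, as in 37.9% of all genes. Against WT on no carbon 24 of the 50 were lower by at least 2-fold and 3 were higher, beside 24% and 14.4% of all genes; WT on cellobiose lay below all 3 no carbon libraries in 27 genes, and in 44.6% of all genes. In 5 of the 50 genes it lay above all 6 no carbon and sucrose libraries, against 7.94% of all genes. In none of the 50 did WT on cellobiose reach 50% of the lowest WT Avicel library, as it did in 10 of the other 101 and in 89.4% of all genes; the WT Avicel level is part of the choice, so nothing is read from this count.

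The members with the largest differences from sucrose in WT on cellobiose were gh10-2 (3.27 log2), xr (3.07), NCU01900 (2.96), NCU08113 (2.76) and NCU09652 (2.57). In NCU08113 cellobiose gave 5.79 FPKM and the 3 sucrose libraries were listed at 0. Cellobiose gave 69.8 FPKM for gh10-2 in the WT, above the 3 sucrose libraries (0, 43.0 and 7.97) but below all 3 no carbon libraries (208, 157 and 501). For xr, by contrast, WT on cellobiose lay above all 6. The most negative differences were those of NCU09924 (-0.67), NCU04400 (-0.47), NCU00710 (-0.23), grp78 (-0.15) and NCU10697 (-0.14), all under 2-fold.

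TBGK on cellobiose, the library that set the limit, was above TBGK on sucrose by at least 2-fold in 40 of the 50 genes, beside 27.4% of all genes, and above WT on cellobiose by that much in 39, beside 20.1% of all genes. None of the 50 was lower by at least 2-fold in either comparison, against 19.3% and 14.2% of all genes. The medians were 3.20 log2 against TBGK on sucrose and 2.16 against WT on cellobiose, and in the other 101 cellulose-induced genes 6.08 and 4.41. Since the choice capped this library, no difference between the 50 and the 101 is read from it. In 38 of the 50 genes it lay above all 6 WT no carbon and sucrose libraries (17.2% of all genes), in 22 at 2 times the highest of them or more (4.67%), and in 3 below all 3 no carbon libraries (42%). Against TBGK on Avicel 39 of the 50 were lower by at least 2-fold, against 7.82% of all genes; none was higher by that much, against 9.34%. The order TBGK Avicel, TBGK cellobiose, WT cellobiose, high to low, held in 44 of the 50 genes and in 15.4% of all genes; the choice capped TBGK on cellobiose, so its place under TBGK on Avicel is partly fixed by it. In NCU02485 and NCU11278 TBGK had the same level on cellobiose and on Avicel to within 1 FPKM, NCU02485 with 83.4 FPKM on cellobiose and 83.3 FPKM on Avicel, and NCU11278 with 160.4 FPKM on cellobiose and 159.7 FPKM on Avicel.

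**Figure D5:**
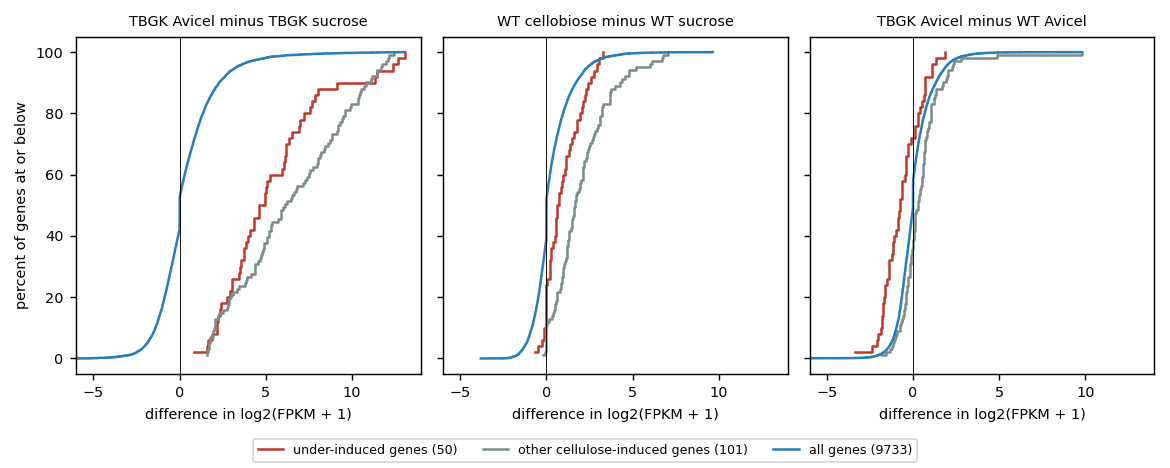
Share of genes at or below a given difference in log2(FPKM + 1): the 50 genes (red), the other 101 cellulose-induced genes (grey), all 9733 (blue). In TBGK on Avicel minus TBGK on sucrose neither library entered the choice. In WT on cellobiose minus WT on sucrose, and in TBGK on Avicel minus WT on Avicel, the reference triplicate did. The red line lies right of the blue one for TBGK on Avicel minus TBGK on sucrose (medians 4.78 and 0) and left of both others for TBGK on Avicel minus WT on Avicel (medians -0.75, 0.28 for the 101 and 0 for all genes).

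Some of the genes were neighbours in gene order. Of the 50, 21 had another member as the next gene on the contig (42%). Of the other 101 cellulose-induced genes, 33 had another of the 101 (32.7%). Within 5 genes the shares were 46% for the 50 and 43.6% for the 101. The sets differ in size, and the share expected from random placement was not worked out, so no clustering is read from these shares. The positions are those of the deposited files, whose genome build is not given in the sources used here. A run of 4 adjacent members, NCU10110, NCU04401, NCU04400 and NCU10107, spanned bases 3482715 to 3489745 of supercont10.4. In all 4, WT Avicel replicate 1 was at 0.150 to 0.234 of the mean of the other two, TBGK on cellobiose had 4.74% to 15.8% of WT Avicel, and no carbon rose over sucrose (limma, adjusted p from 4.29e-05 to 0.00594), although NCU04401 (adjusted p = 0.101) and NCU10110 (adjusted p = 0.107) lost the call with quantile normalization. In TBGK their levels were 254, 990.2, 227 and 559 FPKM on Avicel, 115, 302, 54.6 and 216 FPKM on cellobiose, and 11.6, 11.1, 0 and 0 FPKM on sucrose. The gene xr (supercont10.1, 5518646 to 5520522) stood 2538 bases from NCU08383, which was listed at 0 in both cellobiose libraries and had 6.70 FPKM in TBGK on Avicel, against 6.79, 15.9 and 20.9 FPKM in WT on Avicel.

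Several pairs joined genes of different lists or a named gene with an unnamed one. NCU00891 of the pentose list and gh2-1 were 92 bases apart on supercont10.1, NCU00710 and gh3-8 were 116 bases apart, and NCU00763 and gh5-1 275 bases apart on the same contig. The xylanase gene gh11-2 (supercont10.5, 6198658 to 6199980) lay between NCU07226 and NCU07224, which had 7.08 and 70.4 FPKM in TBGK on Avicel. Its level was far above that of both neighbours, and whether its reads had a part in theirs was not tested. The same holds for gh5-1 and NCU00763, with means of 48208 and 127 FPKM in WT on Avicel. The gene gh3-7 lay next to NCU09924, NCU05068 next to NCU10697, and gh10-2 next to NCU07510, 20085 bases away. The 50 genes lay on 6 contigs, with 14 on supercont10.4 and 13 on supercont10.1, and their median transcript length was 1459.5 bases, against 1383 in the other 101 cellulose-induced genes and 1599 over all genes.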

How the data were processed

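The authors deposited FPKM for each gene or transcript of 13 libraries, for which the submitters' processing notes name TopHat and Cufflinks 0.9.3; the genome build is not given in the sources used here. Coverage (read depth per base), deposited for the replicated libraries, was multiplied by effective length to give their depth. Transcripts were summed to 9733 genes. Whole reads cannot be derived from these values, intervals for counting error are therefore left out, and FPKM differences on the log2(FPKM + 1) scale understate changes of low genes. The members and the 12 gene lists, put together from general knowledge of the fungus, were chosen with earlier results of these data known. Of the lists, 3 genes are not analysed here. Symbols came from a reference table of assembly NC12, which matched 8914 genes and named 1093.

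WT on no carbon and on sucrose were compared with limma 3.58.1 (intensity trend) in R 4.3.3 on the 9 WT triplicate libraries, over the 8759 genes that reached 1 FPKM in 3 or more libraries. An adjusted p under 0.05 (Benjamini-Hochberg) was called, and rose and fell are used for calls. The fit was checked on simulated data. It called 73 of 100 genes changed by 2 log2 and 97 of 100 changed by 5 log2, with 7 false calls. A gene that did not pass may thus still differ. Single libraries allow no test, so genes past a 2-fold difference were counted, with replicates averaged on the log scale. Named were members with a symbol or list entry, the 10 most abundant on Avicel, the 10 with the lowest share in TBGK on cellobiose, the 5 nearest the limit on each side, and the 5 highest and lowest in each comparison; neighbouring genes and those in ranges of values were named after their values were seen. The alternatives were other scalings, pseudocounts of 0.1 and 10, no filter, a replicate block, a fit over all 13 libraries, other thresholds, and each replicate left out. Deposited confidence bounds and isoform fractions were not used. Other steps ran in Python 3.11.15 (numpy 2.4.6, pandas 2.3.3, and for figures matplotlib 3.10.9).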

Additional observations from a re-analysis of the deposited data

Results flagged for a closer look

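In 2 of the 50 genes, NCU05580 and NCU05591, TBGK had less on cellobiose than on sucrose while WT on cellobiose lay above all 3 WT sucrose libraries; the difference between strains was not tested, since TBGK had 1 library per carbon source. The mean differences also had opposite signs in NCU04400, NCU00710, NCU09924, NCU07336, NCU07546 and grp78, but in these 6 genes WT on cellobiose lay within the range of the sucrose libraries. NCU05580 was lower on cellobiose in TBGK (-0.54 in log2(FPKM + 1), 2.83 FPKM on cellobiose and 4.55 on sucrose) and higher on cellobiose in the WT (1.62, with 2.07 FPKM on cellobiose and 0 in all 3 sucrose libraries). NCU05591 had -0.064 in TBGK (81.1 FPKM on cellobiose and 84.8 on sucrose) and 0.28 in the WT (80.4 FPKM on cellobiose and 54.0, 67.2 and 79.8 on sucrose). Both differences in TBGK are under 2-fold, and NCU05580 is near the lower end of the measured levels.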

How the results depend on the processing

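The number of genes that met the conditions was 26 with a limit of 25% in place of 50%, and 28 with a factor of 4 in place of 2. With single replicates left out it was 50 to 79 (79 without WT Avicel replicate 1). With replicate 1 as the only WT Avicel library it was 113, an alternative chosen after seeing the data. Leaving WT Avicel replicates out of the limma fit and fitting the 6 compared libraries alone were also chosen after seeing the data. The fit of the 6 libraries gave 34 rises and 2 falls, beside 40.9% and 24.4% of all genes tested. Under other scalings and pseudocounts 42 to 63 genes met the conditions. For no carbon against sucrose, quantile normalization gave 20 rises and 5 falls among the 50, beside 30.0% and 28.1% of all genes tested. Leaving out single replicates gave 1 to 2 falls, beside at least 20.7% of all genes tested. A replicate block gave 33 rises and 2 falls (3479 and 2050 over all genes). The replicate numbers did not pair the libraries: same-numbered no carbon and sucrose libraries correlated at -0.12, -0.09 and -0.02 in their deviations. Under quantile normalization the sign turned for NCU00762 (-0.070), NCU00763 (-0.23), NCU02485 (-0.94), NCU05068 (-0.29), NCU07224 (-0.26), NCU07270 (-0.58), NCU08176 (-0.52), NCU08383 (-0.085) and NCU10697 (-1.12). For TBGK against WT on Avicel with WT replicate 1 alone, 7 genes were lower, beside 4.96% of all genes. The sign turned for NCU00292 (0.33), xr (0.25) and NCU10110 (0.15). For WT cellobiose against sucrose, 2 genes were lower with quantile normalization and with a pseudocount of 0.1, beside 8.03% and 7.62% of all genes. With a pseudocount of 10, 10 were higher, beside 10.6% of all genes. Leaving out single sucrose replicates gave 0 to 2 lower, beside 5.45% to 10.7% of all genes. For WT cellobiose against no carbon, 9 were higher with quantile normalization, beside 17.4% of all genes. With single replicates left out 3 to 5 were higher, beside 14.1% to 15.5% of all genes. For TBGK cellobiose against sucrose, 2 were lower with quantile normalization, beside 24.6% of all genes. The cause of these changes was not tested. Single libraries of unknown depth limit what can be said of values near 0.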
